A study of Homo sapiens with 16 samples.

Results

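The 52 genes described here encode secreted factors of the senescence-associated secretory phenotype (SASP) and the receptors and adhesion molecules listed with them, outside the best known interleukin, CXC chemokine and metalloproteinase core. They were taken from a named list of SASP genes, 52 of 19974 protein-coding genes, by name and not by a measured value, but the list was picked for description with earlier results of these data known. For each gene the data are the distinct chromatin accessibility peaks whose summit falls inside the gene or within 10 kb of either end (hg38), in each of 16 peak lists. Many of these loci overlap other protein-coding loci (4 at ICAM1, 3 at GDF15, 2 at CSF3 and 0 at KITLG). A peak can thus count for several genes. The peaks came from ATAC-seq, in which Tn5 transposase inserts into open DNA, of IMR90 cells, an established human lung fibroblast line. The cells carried a retrovirally delivered △B-RAF:ER and were given 4-hydroxy-tamoxifen (4-OHT). This protein is a truncated B-RAF kinase joined to a hormone-binding domain of the estrogen receptor, which lets 4-OHT switch the kinase on, and lasting Raf signalling drives fibroblasts into oncogene-induced senescence. The 4 groups had 4 libraries each: Raf-active cells in hypoxia (0.5% oxygen), Raf-inactive cells in hypoxia, Raf-active cells in normoxia and Raf-inactive cells in normoxia. All 4 groups have 1 treatment text in the labels, which does not say what the Raf-inactive cells received, for how long any cells were treated or kept in hypoxia, or whether replicates were separate cultures, so each p-value speaks only to the scatter among the libraries, which may be technical. All results come from 1 cell line and 1 inducible transgene.

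Senescent cells stop dividing but go on secreting. Chemokines and colony-stimulating factors of the SASP call in and sustain immune cells, the IGF-binding proteins (IGFBPs) hold or carry insulin-like growth factors, the plasminogen activators and their inhibitors govern proteolysis outside the cell, and growth factors of the EGF, FGF, HGF, WNT and BMP families act on neighbouring cells. Shed or surface receptors such as the TNF receptors, FAS and EGFR are counted with the SASP because they tune how a cell answers the same signals. An accessible site near such a gene is a place where regulators may bind, but peak numbers say nothing directly about its transcripts or protein, neither of which was measured here.

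The number of distinct peaks ranged from 169287 to 206757 per library, and the 52 loci held 0.325% to 0.384% of the peaks over all protein-coding loci. The background coverage recovered from the lists averaged 7.32 reads at the commonest summit background in Raf-active hypoxia, 4.79 in Raf-inactive hypoxia, 6.75 in Raf-active normoxia and 3.23 in Raf-inactive normoxia libraries, so depth and Raf state moved together. Depth also moved with oxygen in Raf-inactive cells, at 4.61 to 5.02 reads in hypoxia and 3.01 to 3.5 in normoxia. In Raf-active cells the oxygen states overlapped (6.53 to 8.34 in hypoxia and 6.09 to 7.1 in normoxia). Peak numbers were therefore scaled to each library's total over all protein-coding loci, and calls were repeated on lists thinned to matched depth. In lists from bulk cells, a site open in fewer cells and a site less open in every cell cannot be told apart. As a check on cell type, all 14 fibroblast marker loci were tested and none was without peaks in a group. Their summed scaled peaks were 118 to 124 in Raf-active hypoxia, 159 to 162 in Raf-inactive hypoxia, 113 to 130 in Raf-active normoxia and 135 to 141 in Raf-inactive normoxia libraries, and 10 of the 14 fell with Raf in hypoxia and 5 in normoxia. Some marker loci of other cell types were called with Raf as well. With Raf in hypoxia, 4 of 8 tested epithelial marker loci rose and none fell, 2 of 8 endothelial loci rose and 1 fell, and 3 of 6 blood loci rose and none fell. With Raf in normoxia the counts were 4 and 1 for the epithelial, 5 and 2 for the endothelial and 5 and 1 for the blood list. Of all tested loci, 33.7% rose and 26.5% fell with Raf in hypoxia, and 37.2% rose and 25.9% fell in normoxia. The marker lists were not tested against these shares. The summed peaks of the epithelial list ran from 61.0 to 64.6 in Raf-active hypoxia, 48.1 to 51.5 in Raf-inactive hypoxia, 53.5 to 57.9 in Raf-active normoxia and 47.5 to 50.1 in Raf-inactive normoxia. Those of the endothelial list were 107 to 110 in Raf-active hypoxia, 100.0 to 105 in Raf-inactive hypoxia, 107 to 111 in Raf-active normoxia and 92.6 to 97 in Raf-inactive normoxia. Those of the blood list were 55.4 to 58.9 in Raf-active hypoxia, 43.7 to 45.7 in Raf-inactive hypoxia, 47.3 to 53.1 in Raf-active normoxia and 37.1 to 43.3 in Raf-inactive normoxia. Of these 3 lists only ESRP1, a splicing factor of epithelial cells, had no peak in a whole group, and it had none in either Raf-active group. TEK of the endothelial list and CSF1R of the blood list are also in a list of paired receptors used further on. The part of these markers in the results was not tested.

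Promoters give the sharpest view of single genes. RefSeq (GRCh38.p14) gave 46 promoters of 300 bases, from 250 before to 50 after the start, for 36 of the 52 genes; IGFBP1, NRG1, ANGPT1, TIMP2, BMP2, STC1, CCL2, IL13RA2, IL7, CSF1, PLAT, IL15, CSF3, CCL5, TNFRSF11B and IGFBP7 are named only. A peak overlapped 26 of the 46 promoters in all 16 libraries, against 59.4% of all 22156 coding promoters, and 39 of the 46 in at least 1 library, against 73.5%. With Raf in normoxia 4 member promoters had a peak in 4 of 4 Raf-active and 0 of 4 Raf-inactive libraries (1.52% of all promoters did), and none had the opposite pattern (1.13%). These 4 were the CCL20 promoter and 3 overlapping CCL3 promoters. With Raf in hypoxia 2 member promoters were so gained (1.62% of all), 1 of CCL3 and 1 of PLAU, and none was lost (0.718%). In Raf-active cells hypoxia took away 1 member promoter peak, that of CCL20 (0.203% of all promoters), and gave none (0.799%). In Raf-inactive cells no member promoter was gained (0.275%) or lost (0.131%) with hypoxia.

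The CCL20 promoter had a peak in 0 of 4 Raf-active hypoxia, 0 of 4 Raf-inactive hypoxia, 4 of 4 Raf-active normoxia and 0 of 4 Raf-inactive normoxia libraries. CCL20 is the chemokine ligand of CCR6 and draws lymphocytes and dendritic cells. The peak, at chr2:227813646-227813967, was low, with a mean fold of 2.01 over the local background in the authors' lists, and it was also in 4 of 4 Raf-active normoxia libraries and in no other library at matched depth. The most upstream CCL3 promoter had a peak in 4 of 4 Raf-active hypoxia, 1 of 4 Raf-inactive hypoxia, 4 of 4 Raf-active normoxia and 0 of 4 Raf-inactive normoxia libraries. CCL3 is a macrophage inflammatory chemokine, and its region at chr17:36089918-36090784 had a mean fold of 9.31 in the authors' lists, well above that of CCL20. The downstream PLAU promoter, of the urokinase plasminogen activator, had a peak in 4 Raf-active hypoxia, 0 Raf-inactive hypoxia, 4 Raf-active normoxia and 2 Raf-inactive normoxia libraries. SERPINB2 encodes plasminogen activator inhibitor of the second type, and its promoter had a peak in 4 Raf-active hypoxia, 1 Raf-inactive hypoxia, 4 Raf-active normoxia and 2 Raf-inactive normoxia libraries. EGF, the founding ligand of the EGF receptor, showed the reverse: its promoter had a peak in 4 Raf-active hypoxia, 4 Raf-inactive hypoxia, 1 Raf-active normoxia and 4 Raf-inactive normoxia libraries, and at matched depth in 0 Raf-active normoxia libraries. An internal EGFR start, inside the gene, had a peak in 1 Raf-active hypoxia, 4 Raf-inactive hypoxia, 0 Raf-active normoxia and 3 Raf-inactive normoxia libraries, while the main EGFR promoter had one in all 16. These 6 promoters are shown as examples of peaks that came or went with Raf or oxygen, and further ones are named below. Capitals mark matches on either strand to AP-1 (TGANTCA), C/EBP (TTGCNNAA), ETS (CCGGAAG), TEAD (GGAATG), the hypoxia response element (ACGTG or GCGTG) and NF-kB, and all are printed in the direction of the gene.
CCL20, chr2:227813592-227813891, plus strand: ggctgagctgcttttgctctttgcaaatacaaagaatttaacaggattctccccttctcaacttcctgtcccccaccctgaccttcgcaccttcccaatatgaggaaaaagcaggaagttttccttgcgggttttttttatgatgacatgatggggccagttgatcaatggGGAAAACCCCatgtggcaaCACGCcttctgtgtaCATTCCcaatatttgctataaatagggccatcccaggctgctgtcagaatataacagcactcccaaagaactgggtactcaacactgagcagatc
CCL3, chr17:36090094-36090393, minus strand: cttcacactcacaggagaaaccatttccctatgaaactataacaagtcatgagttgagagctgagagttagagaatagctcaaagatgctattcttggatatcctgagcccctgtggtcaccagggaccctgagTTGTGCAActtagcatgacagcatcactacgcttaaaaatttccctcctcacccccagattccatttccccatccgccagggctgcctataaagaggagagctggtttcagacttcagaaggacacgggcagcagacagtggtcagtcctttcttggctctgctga
PLAU, chr10:73910882-73911181, plus strand: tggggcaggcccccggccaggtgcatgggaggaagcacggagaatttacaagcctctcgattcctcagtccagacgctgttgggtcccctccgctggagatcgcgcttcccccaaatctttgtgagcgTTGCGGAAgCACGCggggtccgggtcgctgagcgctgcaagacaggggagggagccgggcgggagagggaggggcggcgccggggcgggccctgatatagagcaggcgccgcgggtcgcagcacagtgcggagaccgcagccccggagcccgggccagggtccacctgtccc
SERPINB2, chr18:63887455-63887754, plus strand: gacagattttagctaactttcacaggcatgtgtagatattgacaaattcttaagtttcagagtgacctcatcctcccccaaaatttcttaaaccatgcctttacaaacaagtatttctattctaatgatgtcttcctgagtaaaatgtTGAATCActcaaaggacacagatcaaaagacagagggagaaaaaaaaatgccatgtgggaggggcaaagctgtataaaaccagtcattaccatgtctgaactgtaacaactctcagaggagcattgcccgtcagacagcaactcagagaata
EGF, chr4:109912633-109912932, plus strand: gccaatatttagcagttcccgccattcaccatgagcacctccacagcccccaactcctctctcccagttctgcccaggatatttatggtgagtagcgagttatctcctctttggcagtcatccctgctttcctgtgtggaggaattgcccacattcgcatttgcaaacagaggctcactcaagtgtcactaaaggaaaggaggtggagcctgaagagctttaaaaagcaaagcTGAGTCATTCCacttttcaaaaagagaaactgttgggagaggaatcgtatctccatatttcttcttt
EGFR internal start, chr7:55109589-55109888, plus strand: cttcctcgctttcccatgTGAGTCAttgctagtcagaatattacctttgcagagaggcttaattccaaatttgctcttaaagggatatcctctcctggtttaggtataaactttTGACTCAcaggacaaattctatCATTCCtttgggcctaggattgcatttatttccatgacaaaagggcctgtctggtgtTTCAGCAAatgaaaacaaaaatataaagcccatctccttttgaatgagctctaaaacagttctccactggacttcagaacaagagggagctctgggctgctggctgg

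Positions are counted from the start, with -1 the last base before it. The CCL20 promoter held an NF-kB match at -79, a hypoxia response element at -60 and a TEAD match at -45. The CCL3 promoter held a C/EBP match at -116, and the PLAU promoter a C/EBP match at -122 beside a hypoxia response element at -113. SERPINB2 had 1 AP-1 match, at -102. In EGF an AP-1 match at -17 overlapped a TEAD match at -12, so a single run of capitals marks both, and the internal EGFR start held AP-1 matches at -232 and -136, a TEAD match at -114 and a C/EBP match at -57. Over all 46 promoters the AP-1 motif was in 13.0% (6.16% of all coding promoters), C/EBP in 17.4% (8.69%), TEAD in 21.7% (12.2%), NF-kB in 13.0% (6.54%), the hypoxia response element in 47.8% (54.7%) and ETS in 2.17% (12.8%). KITLG held the ETS match. These shares describe letters in the windows and were not tested.

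**Figure D1:**
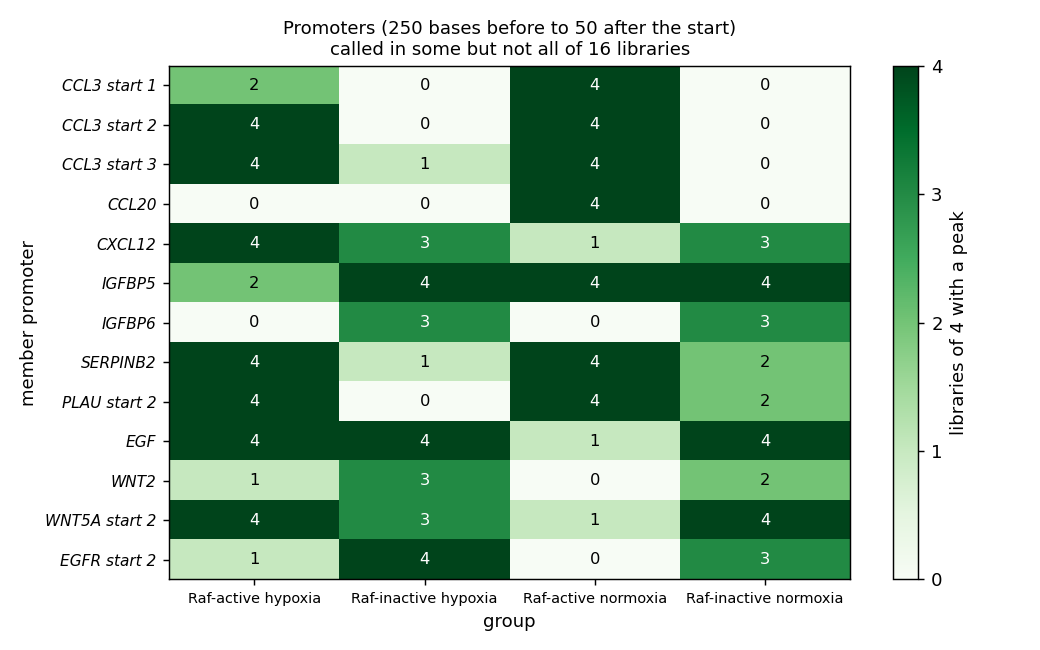
The 13 member promoters with a peak in some but not all of the 16 libraries are rows, the 4 groups are columns, and each cell gives the number of libraries of 4 with an overlapping peak (colour scale 0 to 4). CCL20 has 4 only in Raf-active normoxia, and EGF has 4 in every group but Raf-active normoxia, where it has 1; where a gene has several starts they are numbered by coordinate.

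Peaks of other promoters varied as well, some of them in patterns much like those above. The CXCL12 promoter had a peak in 4 Raf-active hypoxia, 3 Raf-inactive hypoxia, 1 Raf-active normoxia and 3 Raf-inactive normoxia libraries, while the second WNT5A promoter had one in 4 Raf-active hypoxia, 3 Raf-inactive hypoxia, 1 Raf-active normoxia and 4 Raf-inactive normoxia libraries. IGFBP6 had a promoter peak in 0 of 8 Raf-active libraries and in 3 of 4 Raf-inactive libraries in either oxygen state. The WNT2 promoter had one in 1 Raf-active hypoxia, 3 Raf-inactive hypoxia, 0 Raf-active normoxia and 2 Raf-inactive normoxia libraries. IGFBP5 kept its promoter peak in 2 of 4 Raf-active hypoxia libraries and in 4 of 4 of each other group. The KITLG promoter and all 3 FAS promoters had a peak in all 16 libraries, although these loci lost many other peaks with Raf.

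Across whole loci, 47 of the 52 genes had a mean of at least 3 scaled peaks over the 16 libraries and were tested with limma among 15118 loci; CCL3, CCL7, CCL8, CCL13 and IL13RA2 fell below that mean. With Raf in hypoxia, 8 loci rose, 16 fell and 23 did not pass the test at an adjusted p below 0.05, which is 51.1% called against 60.2% of all tested loci (33.7% rose and 26.5% fell). With Raf in normoxia, 16 rose, 16 fell and 15 did not pass, 68.1% called against 63.1% of all tested loci (37.2% rose and 25.9% fell). The 2 groups did not overlap for 7 of the rises and 15 of the falls in hypoxia (28.9% and 23.3% of all loci) and for 14 and 14 in normoxia (31.2% and 22.5%). The median log2 change was -0.10 over the tested members and 0.05 over all tested loci in hypoxia, and 0.07 and 0.10 in normoxia. The gap between the share of members called and that of all loci was not tested in either oxygen state. In hypoxia the number of members called was 24 here, 28 at matched depth and 30 with lists of equal length. The split depends on scaling: without it there were 17 rises and 8 falls in hypoxia (53.5% and 14.7% of all 15175 loci then tested) and 23 rises and 11 falls in normoxia (56.7% and 16.5%), and the median of all loci moved up by 0.23 in each. At matched depth the split was 11 rises and 17 falls in hypoxia and 17 rises and 14 falls in normoxia. Shares over all loci are not given for matched depth or equal list length, so those counts do not compare members with all loci. The calls lost without scaling were the falls of CCL2, EREG, EGF, NRG1, INHBA, BMP6, ICAM1 and TNFRSF1A in hypoxia, where NRG1 turned to 0.07, and those of CSF2, IGFBP1, SPP1, PGF and BMP6 in normoxia.

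The Raf comparisons in hypoxia and in normoxia share no library. Of the 47 loci, 6 rose in both (CCL26, CSF3, PLAUR, AREG, BMP2 and TNFRSF1B) and 12 fell in both (CCL2, IGFBP1, EGF, FGF7, ANGPT1, WNT2, KITLG, BMP6, ICAM1, FAS, IL7 and IL15). EREG and NRG1 fell in hypoxia and rose in normoxia, and no locus did the opposite. The hypoxia falls of EREG and NRG1 were among the calls lost without scaling. SERPINB2 and TIMP1 rose and INHBA and TNFRSF1A fell past the test in hypoxia alone. In normoxia alone, IGFBP2, IGFBP3, IGFBP5, PLAT, TIMP2, HGF, FGF2 and TNFRSF11B rose and CSF2, CXCL12, SPP1 and PGF fell past the test. The remaining 11 (CCL5, CCL20, CSF1, IGFBP4, IGFBP6, IGFBP7, PLAU, GDF15, STC1, WNT5A and EGFR) passed in neither. Shares of all tested loci are not given for these joint patterns, so the counts do not compare members with all loci. Passing in one oxygen state alone does not show a difference between the states. The test of that difference is given with the oxygen results.

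**Figure D2:**
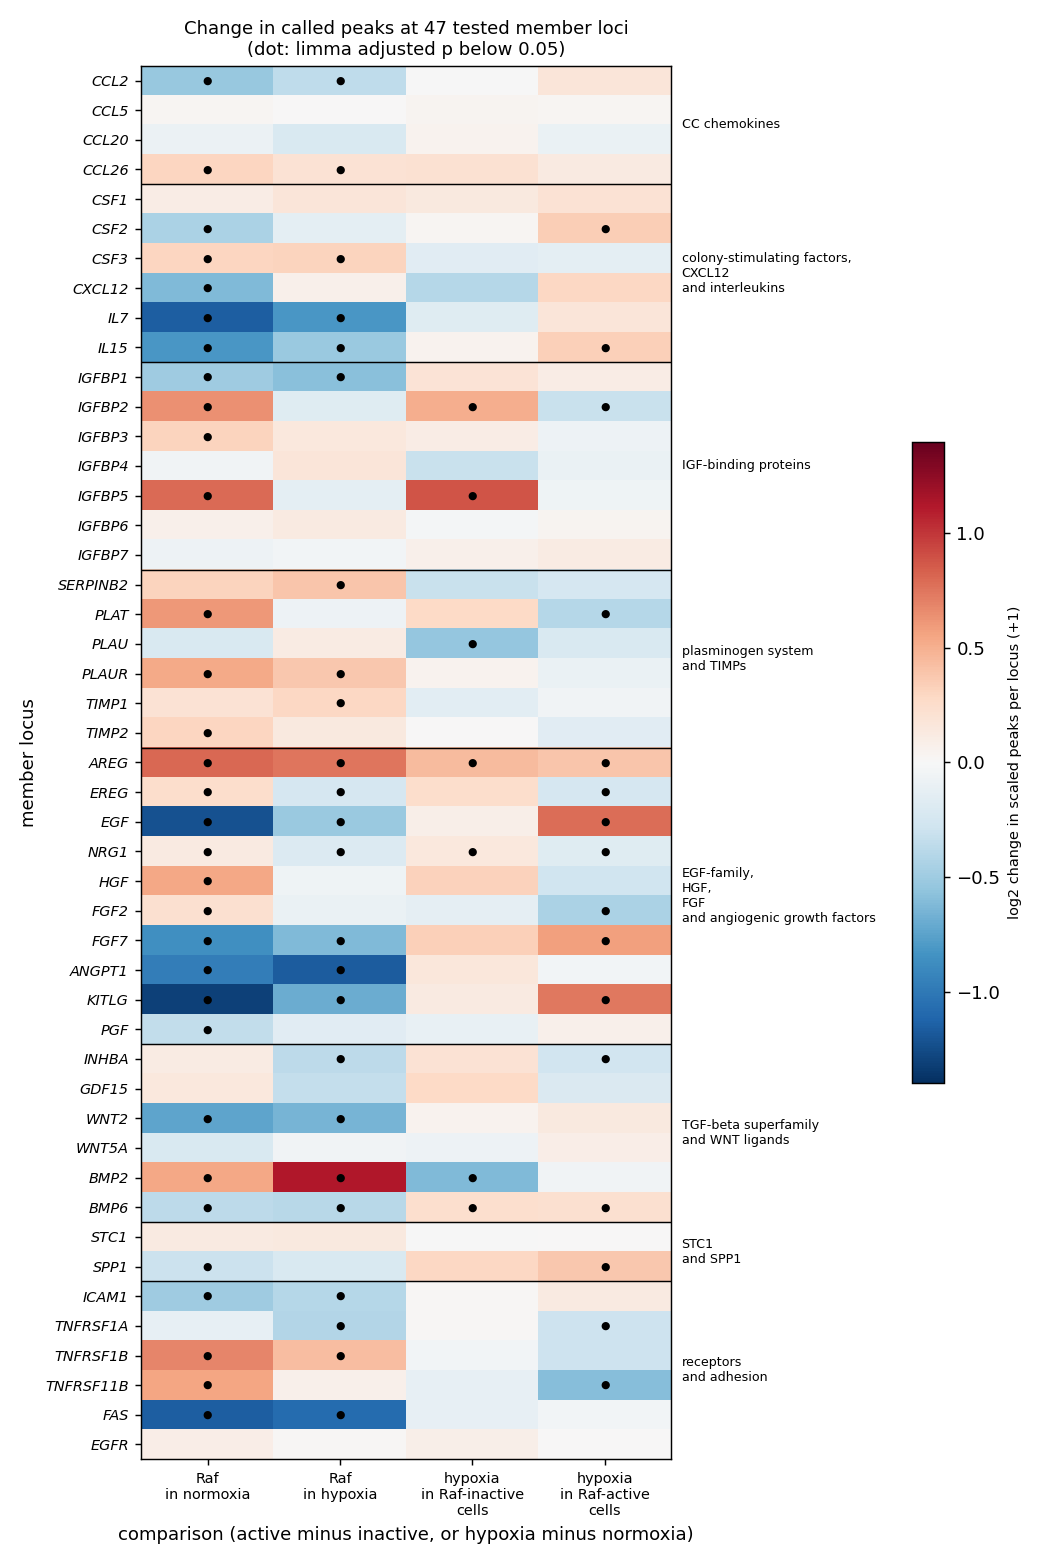
Log2 change in scaled peaks (plus 1) at the 47 tested loci, in rows grouped by role, for the 4 comparisons in columns; red is higher and blue is lower in Raf-active cells (first 2 columns) or in hypoxia (last 2 columns), and dots mark a limma adjusted p below 0.05. KITLG, EGF, FAS, IL7 and ANGPT1 are the deepest falls with Raf in normoxia, and BMP2 is the highest rise with Raf in hypoxia.

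Among the CC chemokines, which attract monocytes, lymphocytes and eosinophils, 4 of 8 loci were tested, and with Raf CCL26 rose and CCL2 fell in both oxygen states. CCL26, an eosinophil chemokine, had 8.39, 8.55, 7.29 and 7.51 scaled peaks in Raf-active hypoxia, against 6.65, 6.71, 6.85 and 6.72 in Raf-inactive hypoxia. Its normoxia values were 8.03, 7.06, 6.64 and 7.08 in Raf-active cells, against 5.4, 6.54, 5.41 and 5.32 in Raf-inactive cells. The groups did not overlap in either oxygen state, and the log2 changes with Raf were 0.21 ± 0.09 (SE) in hypoxia (limma adjusted p = 0.0444) and 0.30 ± 0.09 in normoxia (limma adjusted p = 0.00485). The hypoxia call did not pass without Raf-active hypoxia replicate 1 or 2 or without any 1 Raf-inactive hypoxia replicate, with log2 changes of 0.17 to 0.21. CCL2, the main monocyte chemoattractant, fell by 0.35 on the log2 scale with Raf in hypoxia (limma adjusted p = 0.00331) and by 0.53 in normoxia (limma adjusted p = 6.94e-05), with no overlap of groups. The hypoxia call was lost with 50 kb around the gene (-0.09) and with each peak given to its nearest gene (-0.06). A region across the lower-coordinate end of CCL2, chr17:34255058-34255643, had a peak in all 4 libraries of each group but Raf-active normoxia, where it had none. CCL5, a T cell chemokine, had log2 changes with Raf of 0.00 ± 0.15 in hypoxia and 0.02 ± 0.15 in normoxia, and the CCL20 locus as a whole had -0.21 ± 0.09 in hypoxia and -0.08 ± 0.09 in normoxia, none past the test. The untested CCL3 locus had 0.932, 0.95, 0.911 and 1.88 scaled peaks in Raf-active hypoxia, against 0, 0, 1.14 and 0 in Raf-inactive hypoxia. In normoxia CCL3 had 2.67, 3.53, 2.85 and 2.65 in Raf-active cells, against none in the 4 Raf-inactive libraries. Thus CCL3 had peaks in all 8 Raf-active libraries and in 1 of 8 Raf-inactive libraries. CCL8 had 1.82 to 1.9 in Raf-active hypoxia, 2.24 to 3.42 in Raf-inactive hypoxia, 1.77 to 1.9 in Raf-active normoxia and 3.19 to 4.36 in Raf-inactive normoxia. CCL13 had 0.911 to 1.86 in Raf-active hypoxia, 2.22 to 3.35 in Raf-inactive hypoxia, 0.883 to 0.949 in Raf-active normoxia and 2.16 to 4.26 in Raf-inactive normoxia. Both are monocyte chemokines of the cluster that holds CCL2, and both were lower in the Raf-active libraries of each oxygen state, though without a test. CCL7, which shares 1 region with the neighbouring CCL2 locus, ranged from 2.13 to 3.24 over the 16 libraries, on 2 or 3 peaks.

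The colony-stimulating factors, CXCL12 and the interleukins IL7 and IL15 made 6 loci, all tested. With Raf, 1 rose and 2 fell in hypoxia (33.7% and 26.5% of all tested loci did). In normoxia 1 rose and 4 fell (37.2% and 25.9%). IL7, a survival factor for lymphocytes, had 5.59, 6.65, 6.37 and 4.69 scaled peaks in Raf-active hypoxia, against 11.1, 11.2, 11.4 and 10.1 in Raf-inactive hypoxia. In normoxia IL7 had 4.46, 5.3, 3.79 and 7.08 in Raf-active cells, against 13, 12, 13 and 11.7 in Raf-inactive cells. All 8 Raf-active values lay below all 8 Raf-inactive values, with log2 changes of -0.81 ± 0.13 in hypoxia (limma adjusted p = 1.46e-05) and -1.15 ± 0.13 in normoxia (limma adjusted p = 1.51e-07). IL15, which sustains natural killer cells, had 13.1, 15.2, 12.7 and 12.2 in Raf-active hypoxia, against 20.0, 17.9, 17.1 and 23.5 in Raf-inactive hypoxia. In normoxia IL15 had 8.92, 8.83, 12.3 and 11.5 in Raf-active cells, against 20.5, 20.7, 18.4 and 16 in Raf-inactive cells. It fell in both states without overlap, by 0.52 in hypoxia (limma adjusted p = 0.000553) and by 0.81 in normoxia (limma adjusted p = 4.03e-06). The hypoxia call was lost at peaks of at least 5-fold enrichment (-0.14). CSF3, the granulocyte growth factor G-CSF, had 6.53, 5.7, 5.46 and 5.63 in Raf-active hypoxia, against 4.44, 4.47, 4.57 and 4.48 in Raf-inactive hypoxia. In normoxia CSF3 had 7.13, 7.06, 6.64 and 5.31 in Raf-active cells, against 5.4, 5.45, 4.33 and 5.32 in Raf-inactive cells. It rose by 0.31 ± 0.10 in hypoxia, where the groups did not overlap (limma adjusted p = 0.00946), and by 0.30 ± 0.10 in normoxia, where they did (limma adjusted p = 0.0127) and where the call was lost without Raf-inactive normoxia replicate 3 (0.23). A region across the lower-coordinate end of CSF3, chr17:40015136-40015828, had a peak in 4 of 4 Raf-active normoxia libraries and in none of the other 12, as the CCL20 promoter did. CXCL12, a stromal chemokine that holds CXCR4-bearing cells, had 5.59, 5.7, 5.46 and 5.63 in Raf-active hypoxia, against 5.55, 4.47, 6.85 and 4.48 in Raf-inactive hypoxia. In normoxia CXCL12 had 6.24, 3.53, 3.79 and 4.42 in Raf-active cells, against 7.56, 7.63, 7.58 and 6.39 in Raf-inactive cells. Its fall of 0.61 in normoxia passed the test (limma adjusted p = 0.000497), while the change in hypoxia was 0.07 ± 0.13. CSF2, the myeloid growth factor GM-CSF, had a log2 change of -0.13 ± 0.12 in hypoxia and fell by 0.44 in normoxia (limma adjusted p = 0.00366). CSF1, the macrophage growth factor, had log2 changes of 0.17 ± 0.08 in hypoxia and 0.10 ± 0.08 in normoxia, neither past the test, although 3 regions in its locus were gained with Raf in both oxygen states. At peaks of at least 5-fold enrichment the CSF3 change did not pass in hypoxia (0.06) and turned to -0.15 in normoxia, and with 50 kb around the gene it passed in neither state (0.02 in hypoxia and 0.17 in normoxia). Giving each peak to its nearest gene brought CXCL12 in normoxia to 0.00 and CSF2 in normoxia to 0.22.

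All 7 IGFBP loci were tested. With Raf, none rose and 1 fell in hypoxia (33.7% and 26.5% of all tested loci did). In normoxia 3 rose and 1 fell (37.2% and 25.9%). IGFBP5, which binds IGFs in the extracellular matrix and is a known senescence gene, had 14, 12.3, 12.7 and 10.3 scaled peaks in Raf-active hypoxia, against 9.98, 11.2, 17.1 and 17.9 in Raf-inactive hypoxia. In normoxia IGFBP5 had 11.6, 13.2, 13.3 and 13.3 in Raf-active cells, against 6.48, 6.54, 8.66 and 6.39 in Raf-inactive cells. The Raf-inactive normoxia libraries stood below the other 3 groups, with no overlap, and the log2 changes with Raf were -0.14 ± 0.14 in hypoxia (limma adjusted p = 0.417) and 0.80 ± 0.14 in normoxia (limma adjusted p = 8.16e-05). In base pairs covered by peaks the normoxia rise of IGFBP5 was smaller, at 0.18 (limma adjusted p = 0.00183). IGFBP2, its neighbour on chromosome 2, had 9.32, 9.5, 9.11 and 8.45 in Raf-active hypoxia, against 8.87, 11.2, 10.3 and 11.2 in Raf-inactive hypoxia. In normoxia IGFBP2 had 10.7, 10.6, 12.3 and 12.4 in Raf-active cells, against 7.56, 6.54, 6.49 and 7.45 in Raf-inactive cells. It had a log2 change of -0.17 ± 0.09 with Raf in hypoxia and rose by 0.64 ± 0.09 in normoxia (limma adjusted p = 2.69e-06). The normoxia rise did not pass in base pairs covered (0.13) or at peaks of at least 5-fold enrichment (0.41), where the hypoxia change was 0.64. The loci of IGFBP2 and IGFBP5 share 4 regions, of 13 and 16, so their changes are not separate measurements. IGFBP1, a liver-type binding protein, fell by 0.59 in hypoxia (limma adjusted p = 0.00194) and by 0.49 in normoxia (limma adjusted p = 0.00661), but not past the test in either state at matched depth (-0.26 in hypoxia and -0.35 in normoxia) or with 50 kb around the gene (-0.16 and -0.04). IGFBP3, the main carrier of IGFs in blood, had a log2 change of 0.14 ± 0.10 in hypoxia and rose by 0.31 ± 0.10 in normoxia (limma adjusted p = 0.0119), a call lost with 2 kb around the gene or without Raf-inactive normoxia replicate 2 (0.23) and turned to -0.02 with 50 kb. For IGFBP4, IGFBP6 and IGFBP7 no change with Raf passed the test, and these changes ran from -0.03 to 0.17 in hypoxia and from -0.08 to 0.07 in normoxia. An even count could hide exchange of sites: IGFBP7 lost a region at chr4:57044907-57045622 with Raf in both states, called in 0 of 8 Raf-active and 8 of 8 Raf-inactive libraries with a mean fold of 11.6 in the authors' lists, while 2 other regions were gained in normoxia.

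The plasminogen system and the TIMPs, inhibitors of metalloproteinases, made 6 tested loci. With Raf, 3 rose and none fell in hypoxia (33.7% and 26.5% of all tested loci did). In normoxia 3 rose and none fell as well (37.2% and 25.9%). PLAUR, the urokinase receptor, had 10.3, 10.4, 9.11 and 9.39 scaled peaks in Raf-active hypoxia, against 6.65, 6.71, 7.99 and 7.84 in Raf-inactive hypoxia. Its normoxia libraries had 9.81, 10.6, 9.49 and 12.4 in Raf-active cells, against 7.56, 6.54, 6.49 and 7.45 in Raf-inactive cells. PLAUR rose without overlap in both, by 0.38 ± 0.09 in hypoxia (limma adjusted p = 0.00141) and by 0.53 ± 0.09 in normoxia (limma adjusted p = 5.66e-05). The hypoxia rise did not pass at peaks of at least 5-fold enrichment (0.35). Near the lower-coordinate end of PLAUR, away from its start, 2 adjoining regions (chr19:43645788-43646862 and chr19:43646959-43647962) had peaks in all 8 Raf-active and 0 of 8 Raf-inactive libraries. SERPINB2 had 6.53, 4.75, 5.46 and 6.57 in Raf-active hypoxia, against 4.44, 3.35, 4.57 and 4.48 in Raf-inactive hypoxia. In normoxia SERPINB2 had 7.13, 6.18, 7.59 and 7.08 in Raf-active cells, against 6.48, 5.45, 3.25 and 7.45 in Raf-inactive cells. It rose by 0.39 ± 0.16 in hypoxia (limma adjusted p = 0.0413), a call lost without Raf-active hypoxia replicate 1, 3 or 4 or Raf-inactive hypoxia replicate 1, 2 or 4 (0.30 to 0.42) and turned to -0.33 with 50 kb around the gene, and had a log2 change of 0.31 ± 0.16 in normoxia. PLAT, the tissue-type plasminogen activator, had 11.2, 12.3, 12.7 and 11.3 in Raf-active hypoxia, against 13.3, 11.2, 11.4 and 14.6 in Raf-inactive hypoxia. In normoxia PLAT had 16.9, 15.9, 16.1 and 15 in Raf-active cells, against 10.8, 12, 10.8 and 7.45 in Raf-inactive cells. Only the Raf-active normoxia libraries of PLAT stood above all others, with a rise of 0.61 ± 0.11 (limma adjusted p = 6.93e-05) and a change of -0.07 ± 0.11 in hypoxia. TIMP2 rose by 0.31 ± 0.09 in normoxia (limma adjusted p = 0.00766) and had a log2 change of 0.14 ± 0.09 in hypoxia, and TIMP1 rose by 0.29 ± 0.10 in hypoxia (limma adjusted p = 0.021) and had a log2 change of 0.20 ± 0.10 in normoxia. Both TIMP calls turned at peaks of at least 5-fold enrichment, to -0.04 for TIMP2 in normoxia and to -1.24 for TIMP1 in hypoxia, and that of TIMP1 was lost without Raf-active hypoxia replicate 1 or 4 or Raf-inactive hypoxia replicate 1, 2 or 4 (0.26 to 0.27). The PLAU locus as a whole had a log2 change of 0.12 ± 0.13 in hypoxia and -0.21 ± 0.13 in normoxia, neither past the test, despite the gained promoter peak described above.

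Growth factors of the EGF, HGF, FGF and angiogenic families made 10 tested loci. With Raf, 1 rose and 6 fell in hypoxia (33.7% and 26.5% of all tested loci did). In normoxia 5 rose and 5 fell (37.2% and 25.9%). KITLG, the stem cell factor that signals through KIT, had 9.32, 7.6, 10.0 and 10.3 scaled peaks in Raf-active hypoxia, against 14.4, 14.5, 16 and 17.9 in Raf-inactive hypoxia. In normoxia KITLG had 4.46, 5.3, 5.69 and 5.31 in Raf-active cells, against 14, 16.4, 14.1 and 12.8 in Raf-inactive cells. The Raf-active libraries were below the Raf-inactive ones in each state, and lowest in normoxia, with log2 changes of -0.70 ± 0.10 in hypoxia (limma adjusted p = 6.58e-06) and -1.31 ± 0.10 in normoxia (limma adjusted p = 1.07e-09). EGF had 8.39, 6.65, 8.2 and 7.51 in Raf-active hypoxia, against 14.4, 11.2, 10.3 and 10.1 in Raf-inactive hypoxia. In normoxia EGF had 5.35, 2.65, 2.85 and 6.19 in Raf-active cells, against 9.72, 13.1, 9.74 and 10.6 in Raf-inactive cells. It fell by 0.52 in hypoxia (limma adjusted p = 0.016) and by 1.22 in normoxia (limma adjusted p = 5.47e-06), and no group pair overlapped. The hypoxia call for EGF was lost without Raf-active hypoxia replicate 2 (log2 change -0.45) or Raf-inactive hypoxia replicate 1 (-0.41), and with 2 kb around the gene (-0.28) or lists of equal length (-0.53). ANGPT1, the ligand of the endothelial receptor TEK, had 16.8, 18, 19.1 and 18.8 in Raf-active hypoxia, against 44.4, 39.1, 41.1 and 43.7 in Raf-inactive hypoxia. In normoxia ANGPT1 had 16.9, 18.5, 20.9 and 18.6 in Raf-active cells, against 35.6, 36, 36.8 and 41.5 in Raf-inactive cells. Its groups stood far apart, with falls of 1.17 in hypoxia (limma adjusted p = 2.56e-11) and 0.96 in normoxia (limma adjusted p = 2.25e-10), and 12 of its 45 regions were lost with Raf in both states. FGF7, the keratinocyte growth factor made by fibroblasts, had 10.3, 9.5, 9.11 and 11.3 in Raf-active hypoxia, against 16.6, 13.4, 18.3 and 15.7 in Raf-inactive hypoxia. In normoxia FGF7 had 5.35, 6.18, 5.69 and 8.85 in Raf-active cells, against 14, 12, 11.9 and 11.7 in Raf-inactive cells. It fell without overlap by 0.62 in hypoxia (limma adjusted p = 0.000165) and by 0.85 in normoxia (limma adjusted p = 3.74e-06). The normoxia fall did not pass at peaks of at least 5-fold enrichment (-0.24). An FGF7 region at chr15:49435014-49435680 had peaks in 0 of 8 Raf-active and all 8 Raf-inactive libraries, with a mean fold of 10.3 in the authors' lists.

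AREG, the EGF receptor ligand amphiregulin, went the other way. It had 7.46, 6.65, 6.37 and 6.57 scaled peaks in Raf-active hypoxia, against 3.33, 3.35, 3.42 and 4.48 in Raf-inactive hypoxia. In normoxia AREG had 5.35, 5.3, 4.74 and 4.42 in Raf-active cells, against 2.16, 3.27, 2.16 and 2.13 in Raf-inactive cells. AREG rose without overlap by 0.75 ± 0.12 in hypoxia (limma adjusted p = 1.68e-05) and by 0.81 ± 0.12 in normoxia (limma adjusted p = 5.81e-06), on only 2 to 8 peaks a library, and neither rise passed with 50 kb around the gene (0.04 in hypoxia and 0.07 in normoxia). EREG, the neighbouring ligand epiregulin, had 5.59, 6.65, 7.29 and 6.57 in Raf-active hypoxia, against 7.76, 7.82, 7.99 and 7.84 in Raf-inactive hypoxia. In normoxia EREG had 7.13, 8.83, 7.59 and 7.96 in Raf-active cells, against 6.48, 6.54, 6.49 and 6.39 in Raf-inactive cells. It fell by 0.24 in hypoxia (limma adjusted p = 0.0185) and rose by 0.24 ± 0.08 in normoxia (limma adjusted p = 0.0155), and both turned at peaks of at least 5-fold enrichment, to 0.01 in hypoxia and -0.32 in normoxia. The EREG calls were also lost without Raf-active hypoxia replicate 1 (-0.18) and without Raf-active normoxia replicate 2 (0.19). Without scaling the hypoxia fall of EREG did not pass either, and its peak numbers before scaling averaged the same in both hypoxia groups. NRG1, a ligand of ERBB3 and ERBB4 and by far the longest locus at 1155 kb, had 82, 85.5, 82.9 and 84.5 in Raf-active hypoxia, against 96.5, 96.1, 95.9 and 94 in Raf-inactive hypoxia. In normoxia NRG1 had 93.6, 94.4, 93 and 95.6 in Raf-active cells, against 89.7, 88.3, 84.4 and 83 in Raf-inactive cells. Its small changes, -0.19 ± 0.03 in hypoxia (limma adjusted p = 1.2e-05) and 0.12 ± 0.03 in normoxia (limma adjusted p = 0.000908), passed the test, but that in normoxia turned to -0.10 at matched depth, and at peaks of at least 5-fold enrichment they turned to 0.04 in hypoxia and -0.28 in normoxia. HGF, the ligand of the MET receptor, had 10.3, 10.4, 11.8 and 11.3 in Raf-active hypoxia, against 11.1, 10.1, 13.7 and 11.2 in Raf-inactive hypoxia. In normoxia HGF had 13.4, 13.2, 13.3 and 14.2 in Raf-active cells, against 9.72, 6.54, 8.66 and 11.7 in Raf-inactive cells. The rise of HGF in normoxia was 0.54 ± 0.12 (limma adjusted p = 0.000544), though giving peaks to the nearest gene turned it to -0.04, and the change in hypoxia was -0.06 ± 0.12. FGF2, basic fibroblast growth factor, had a log2 change of -0.10 ± 0.09 in hypoxia and rose by 0.22 ± 0.09 in normoxia, a call (limma adjusted p = 0.0397) that did not pass at matched depth, nor without Raf-active normoxia replicate 1 or 2 or Raf-inactive normoxia replicate 2, 3 or 4 (0.16 to 0.23). PGF, placental growth factor of the VEGF family, had a log2 change of -0.16 ± 0.09 in hypoxia and fell by 0.34 in normoxia (limma adjusted p = 0.00298), a call that was not kept at matched depth and turned to 0.15 in base pairs covered.

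**Figure D3:**
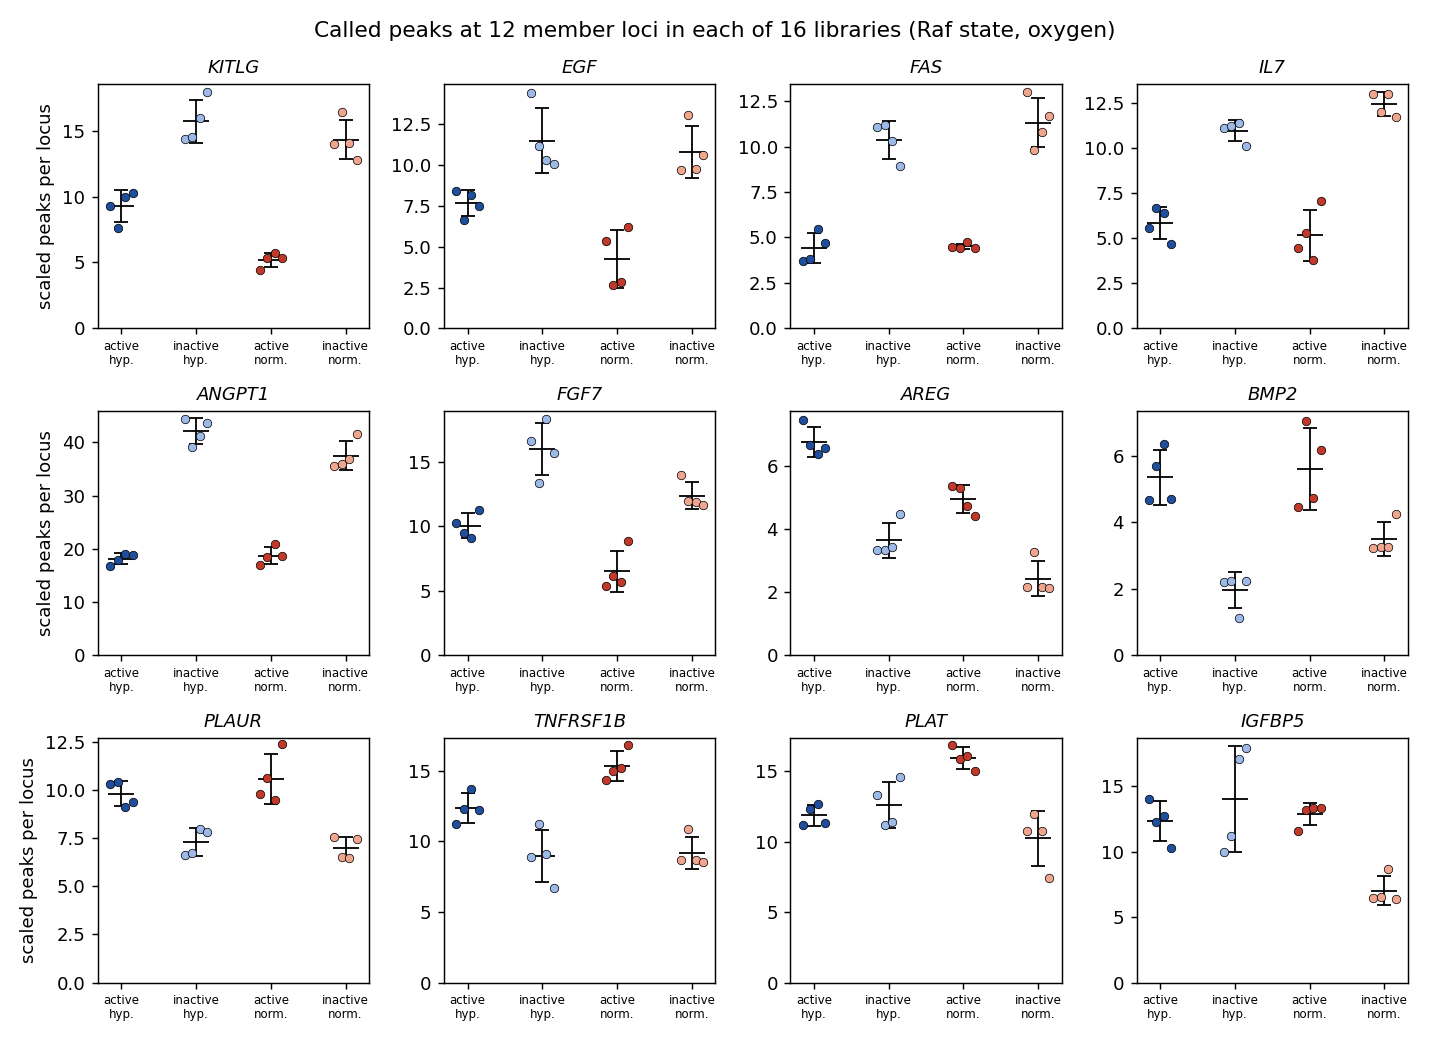
Scaled peaks per locus in each library (points), with the group mean and SD (bars, n = 4), for 12 member loci in Raf-active hypoxia, Raf-inactive hypoxia, Raf-active normoxia and Raf-inactive normoxia from left to right; each vertical axis starts at 0. KITLG, EGF, FAS, IL7, ANGPT1 and FGF7 are lower in Raf-active than in Raf-inactive libraries of each oxygen state, and AREG, BMP2, PLAUR and TNFRSF1B are higher.

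The TGF-beta superfamily and WNT ligands made 6 tested loci. With Raf, 1 rose and 3 fell in hypoxia (33.7% and 26.5% of all tested loci did). In normoxia 1 rose and 2 fell (37.2% and 25.9%). BMP2, a bone morphogenetic protein, had 4.66, 5.7, 6.37 and 4.69 scaled peaks in Raf-active hypoxia, against 2.22, 2.24, 1.14 and 2.24 in Raf-inactive hypoxia. In normoxia BMP2 had 4.46, 7.06, 4.74 and 6.19 in Raf-active cells, against 3.24, 3.27, 3.25 and 4.26 in Raf-inactive cells. It rose without overlap, by 1.12 ± 0.15 in hypoxia (limma adjusted p = 3.41e-06) and by 0.54 ± 0.15 in normoxia (limma adjusted p = 0.00433). This locus holds few peaks, 1 to 8 a library, and with 50 kb around the gene the changes were 0.22 in hypoxia, not past the test, and -0.16 in normoxia. The hypoxia rise was also lost with each peak given to its nearest gene (0.04), and the normoxia rise with lists of equal length (0.31). BMP6, a related ligand, had 14, 12.3, 12.7 and 14.1 in Raf-active hypoxia, against 18.9, 16.8, 17.1 and 17.9 in Raf-inactive hypoxia. In normoxia BMP6 had 11.6, 11.5, 11.4 and 10.6 in Raf-active cells, against 15.1, 14.2, 15.2 and 14.9 in Raf-inactive cells. It fell by 0.39 in hypoxia (limma adjusted p = 4.31e-05) and by 0.37 in normoxia (limma adjusted p = 6.23e-05), without overlap in either. Neither fall passed with 50 kb around the gene (-0.12 in hypoxia and -0.11 in normoxia). WNT2, a WNT ligand of lung mesenchyme, had 5.59, 5.7, 6.37 and 6.57 in Raf-active hypoxia, against 11.1, 10.1, 10.3 and 8.95 in Raf-inactive hypoxia. In normoxia WNT2 had 5.35, 5.3, 5.69 and 5.31 in Raf-active cells, against 8.64, 8.72, 10.8 and 10.6 in Raf-inactive cells. Every Raf-active library of WNT2 was below every Raf-inactive one, with falls of 0.65 in hypoxia (limma adjusted p = 4.36e-06) and 0.73 in normoxia (limma adjusted p = 8.25e-07). At peaks of at least 5-fold enrichment neither passed, with changes of -0.19 in hypoxia and -0.09 in normoxia. INHBA, the activin A subunit, fell by 0.37 in hypoxia (limma adjusted p = 0.00171) and had a log2 change of 0.11 ± 0.09 in normoxia. The INHBA fall in hypoxia was lost with each peak given to its nearest gene (-0.01). WNT5A, which acts through ROR2, and GDF15, a stress-induced TGF-beta relative, did not pass in either state. Their log2 changes were -0.05 ± 0.10 in hypoxia and -0.21 ± 0.10 in normoxia for WNT5A, and -0.33 ± 0.17 in hypoxia and 0.15 ± 0.17 in normoxia for GDF15. Of STC1 and SPP1, a glycoprotein hormone and the matrix cytokine osteopontin, STC1 had log2 changes of 0.13 ± 0.17 in hypoxia and 0.13 ± 0.17 in normoxia, neither past the test. SPP1 had 3.73, 3.8, 3.64 and 3.75 in Raf-active hypoxia, against 4.44, 4.47, 4.57 and 4.48 in Raf-inactive hypoxia. All 4 SPP1 regions had a peak in every hypoxia library, so these values differ by scaling alone. In normoxia SPP1 had 2.67, 1.77, 2.85 and 3.54 in Raf-active cells, against 3.24, 3.27, 3.25 and 4.26 in Raf-inactive cells. Its fall of 0.30 in normoxia (limma adjusted p = 0.0451) was not kept at matched depth or without scaling. This call was also lost without Raf-active normoxia replicate 1 or 2 or Raf-inactive normoxia replicate 2 or 4 (-0.16 to -0.32). The SPP1 change in hypoxia was -0.21 ± 0.13.

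Receptors and adhesion molecules made 7 loci, 6 of them tested. With Raf, 1 rose and 3 fell in hypoxia (33.7% and 26.5% of all tested loci did). In normoxia 2 rose and 2 fell (37.2% and 25.9%). FAS, the death receptor, had 3.73, 3.8, 5.46 and 4.69 scaled peaks in Raf-active hypoxia, against 11.1, 11.2, 10.3 and 8.95 in Raf-inactive hypoxia. In normoxia FAS had 4.46, 4.41, 4.74 and 4.42 in Raf-active cells, against 13, 9.81, 10.8 and 11.7 in Raf-inactive cells. The 8 Raf-active libraries all lay below the 8 Raf-inactive ones, with log2 changes of -1.08 ± 0.11 in hypoxia (limma adjusted p = 5.24e-08) and -1.16 ± 0.11 in normoxia (limma adjusted p = 1.5e-08). TNFRSF1B, the second TNF receptor, had 11.2, 12.3, 13.7 and 12.2 in Raf-active hypoxia, against 8.87, 11.2, 9.13 and 6.72 in Raf-inactive hypoxia. In normoxia TNFRSF1B had 14.3, 15, 15.2 and 16.8 in Raf-active cells, against 8.64, 10.9, 8.66 and 8.52 in Raf-inactive cells. It rose by 0.44 ± 0.11 in hypoxia (limma adjusted p = 0.00222) and by 0.68 ± 0.11 in normoxia (limma adjusted p = 2.4e-05), but at peaks of at least 5-fold enrichment the changes were 0.14 in hypoxia and 0.06 in normoxia, neither past the test. TNFRSF1A, the first TNF receptor, had 6.53, 6.65, 6.37 and 5.63 in Raf-active hypoxia, against 8.87, 7.82, 9.13 and 8.95 in Raf-inactive hypoxia. In normoxia TNFRSF1A had 8.03, 7.94, 7.59 and 7.96 in Raf-active cells, against 9.72, 7.63, 8.66 and 8.52 in Raf-inactive cells. It fell by 0.41 in hypoxia (limma adjusted p = 0.00028) and had a log2 change of -0.11 ± 0.08 in normoxia. The hypoxia fall did not pass in base pairs covered (-0.09). TNFRSF11B, the decoy receptor osteoprotegerin, had 7.46, 6.65, 7.29 and 4.69 in Raf-active hypoxia, against 6.65, 6.71, 4.57 and 6.72 in Raf-inactive hypoxia. In normoxia TNFRSF11B had 11.6, 11.5, 10.4 and 7.96 in Raf-active cells, against 5.4, 6.54, 7.58 and 7.45 in Raf-inactive cells. It rose by 0.55 ± 0.14 in normoxia (limma adjusted p = 0.00251), which turned to -0.21 with peaks given to the nearest gene and did not pass at peaks of at least 5-fold enrichment (0.07), and had a log2 change of 0.07 ± 0.14 in hypoxia. ICAM1, an adhesion molecule for leukocytes, fell by 0.40 in hypoxia (limma adjusted p = 0.00263) and by 0.50 in normoxia (limma adjusted p = 0.00029), though in base pairs covered the changes were -0.08 in hypoxia, not past the test, and 0.13 in normoxia. The normoxia fall was also lost with 50 kb around the gene (-0.12) and with peaks given to the nearest gene (-0.31). EGFR, with 56 regions, had log2 changes of 0.02 ± 0.06 in hypoxia and 0.10 ± 0.06 in normoxia, neither past the test, yet with Raf it gained 11 regions and lost 1 in hypoxia and gained 8 and lost 2 in normoxia. The untested IL13RA2, a decoy receptor for interleukin 13, had 2.73 to 3.75 scaled peaks in Raf-active hypoxia, 2.22 to 2.28 in Raf-inactive hypoxia, 1.9 to 2.67 in Raf-active normoxia and 2.13 to 2.18 in Raf-inactive normoxia.

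**Figure D4:**
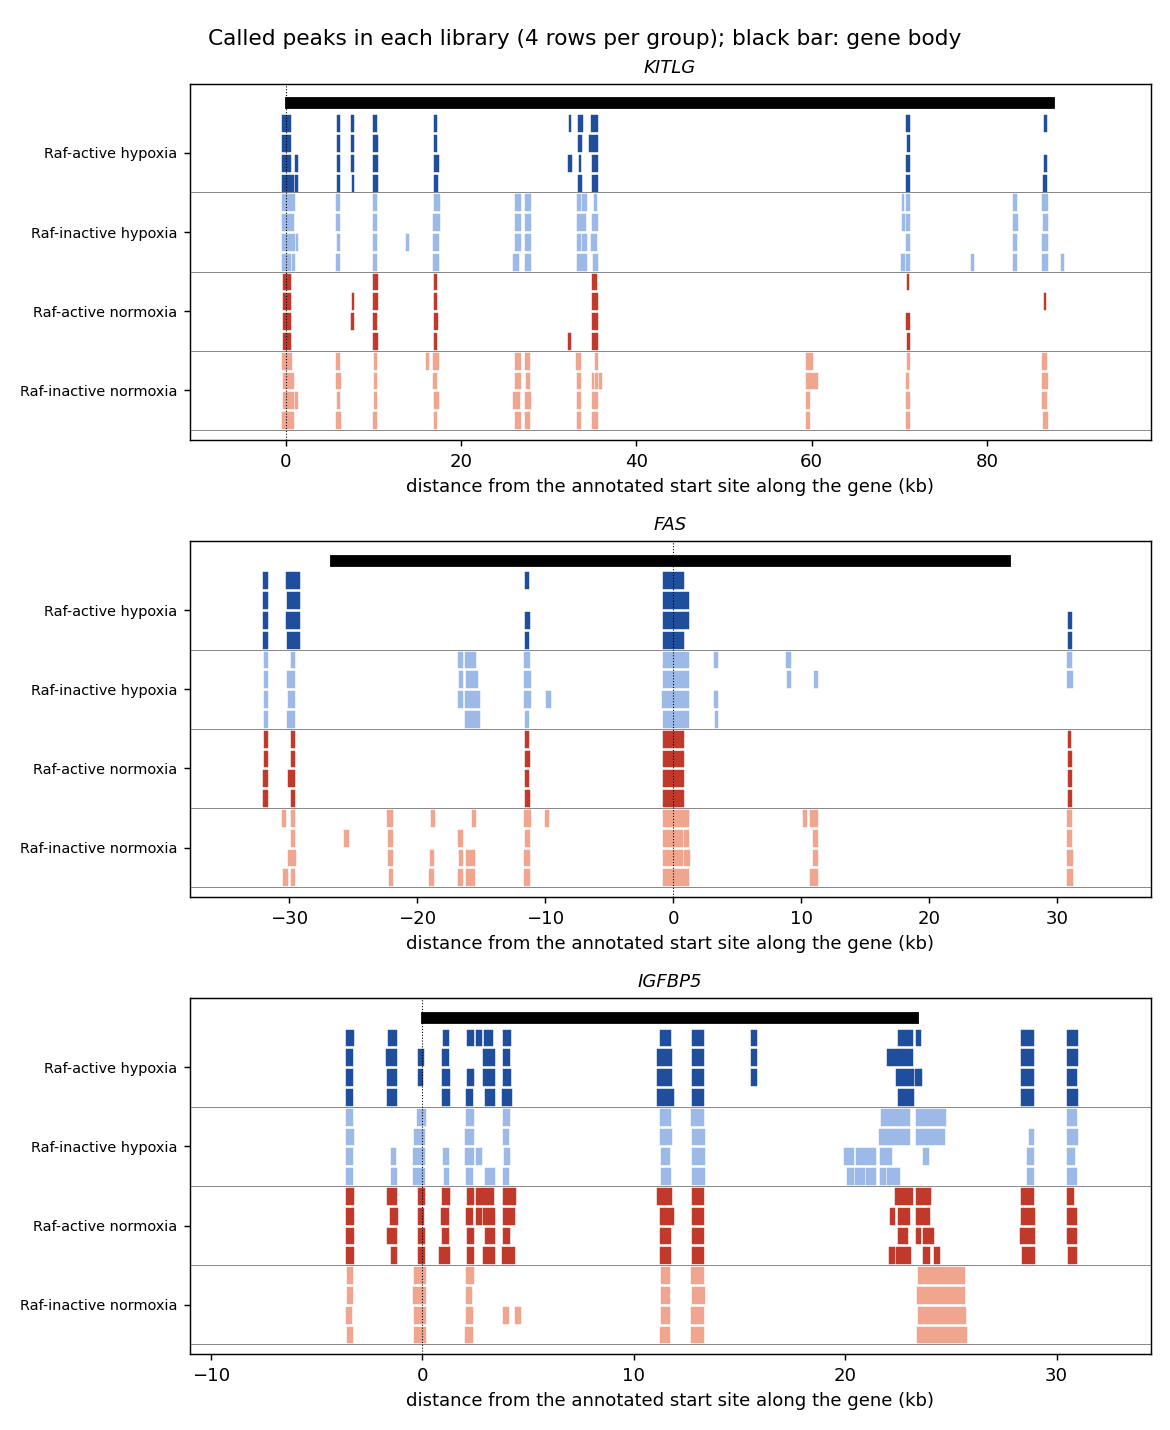
Called peaks at KITLG, FAS and IGFBP5 as bars along the distance from an annotated start site (kb, positive into the gene), 1 row per library, in 4 groups of 4 from Raf-active hypoxia at the top to Raf-inactive normoxia at the bottom; the black bar is the gene body. The peak at the start of KITLG and that at the start of FAS are in every library. Most of the peaks absent from Raf-active libraries lie within the black bars. The FAS bar begins 26.7 kb before the start shown, and many of the absent FAS peaks lie before that start.

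The member loci held 823 merged regions that had peaks of at least 2 libraries, and 232 of them (28.2%) had a peak in all 16, against 26.3% of 299037 regions overall. With Raf in hypoxia 90 member regions were gained, with a peak in 4 of 4 Raf-active and 0 of 4 Raf-inactive libraries, and 74 were lost; these are 10.9% and 8.99% of member regions, against 13.8% and 8.82% of all regions. With Raf in normoxia 120 were gained and 90 lost, 14.6% and 10.9% against 14.1% and 10.6% of all. In both states 55 regions were gained and 47 lost (6.68% and 5.71%, against 6.98% and 5.41% of all). These shares were not tested against the background, including that of gains with Raf in hypoxia (10.9% against 13.8%). Regions of 1 locus are not independent, and NRG1 alone holds 161 of the 823. By within-list rank of −log10 p, the gained regions at the top were at CSF1 (chr1:109901299-109902232, mean fold 10.2 in the authors' lists), CCL26 (chr7:75793369-75793749, 10.6) and TNFRSF1A (chr12:6332498-6332932, inside the gene, 3.92). The first lies 8588 bases and the second 1964 bases outside the gene. These 3 had peaks in 8 of 8 Raf-active and 0 of 8 Raf-inactive libraries, as did a region 7156 bases outside TNFRSF11B. The lost regions at the top were those inside IGFBP7 and FGF7 given above and 1 each inside ANGPT1 and NRG1, each with peaks in 0 of 8 Raf-active and 8 of 8 Raf-inactive libraries. Of the 120 regions gained with Raf in normoxia, 77 were also called in 4 of 4 Raf-active hypoxia libraries (9.36% of member regions, against 8.91% of all regions) and 22 in none of them (2.67% against 2.29%). Of the 90 regions lost in normoxia, 67 were also absent from all Raf-active hypoxia libraries (8.14% of member regions, against 8.13% of all), and 8 were called in all 4 of them. These 8 are 0.972% of member regions, against 0.968% of all regions with the same pattern. They include 2 in KITLG (chr12:88546223-88547337 and chr12:88574293-88574721), 2 in BMP6 (chr6:7773359-7773688 and chr6:7786947-7787812) and the region at CCL2.

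**Figure D5:**
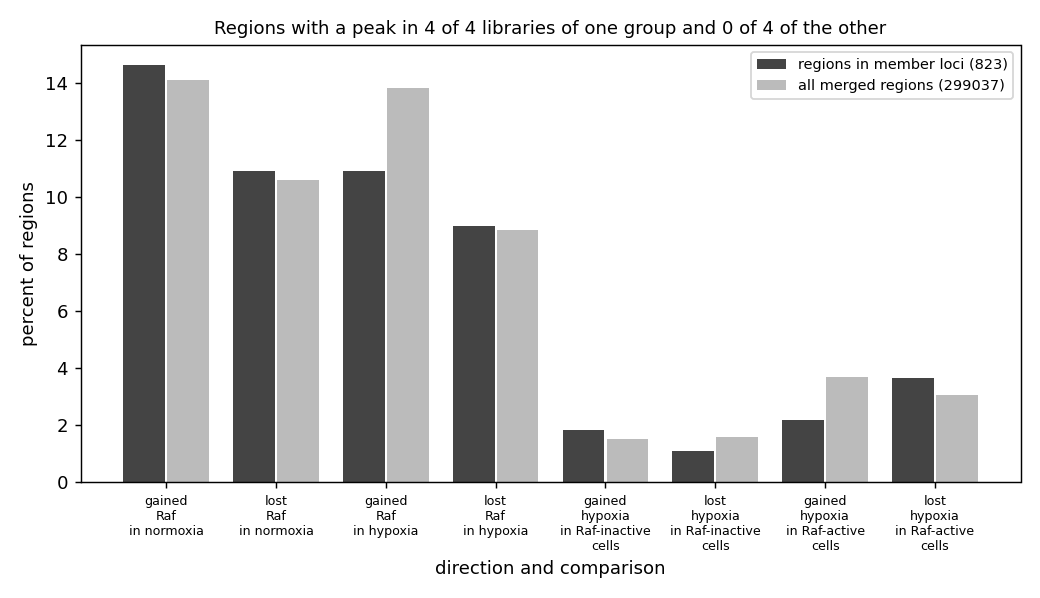
Bars give the percent of merged regions gained (called in all 4 libraries with Raf active, or in hypoxia, and in none of the compared group) or lost (the reverse), for the 823 regions of member loci (dark) and all 299037 regions (light), by comparison and direction. The dark and light bars are at 14.6% and 14.1% for regions gained with Raf in normoxia, and at 10.9% and 13.8% with Raf in hypoxia. The differences were not tested.

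The study also asked how hypoxia acts in each Raf state. In Raf-active cells, 8 member loci rose and 8 fell with hypoxia and 31 did not pass, 34.0% called against 27.9% of all tested loci (13.7% rose and 14.2% fell). In Raf-inactive cells, 5 rose, 2 fell and 40 did not pass, 14.9% called against 13.7% (6.39% and 7.3%). The groups did not overlap for 7 rises and 7 falls in Raf-active cells (11.7% and 11.2% of all loci) and for 5 rises and 1 fall in Raf-inactive cells (5.63% and 4.74%). These comparisons use the same libraries as the Raf comparisons, so a low or high value in one group enters both. The count of calls rests on single libraries: it was 9 in Raf-active cells without Raf-active hypoxia replicate 1, and 11 in Raf-inactive cells without Raf-inactive normoxia replicate 4.

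In Raf-active cells the loci that rose with hypoxia were mostly those that Raf lowered: EGF by 0.78 ± 0.18 (limma adjusted p = 0.00216), KITLG by 0.73 ± 0.10 (limma adjusted p = 2.04e-05) and FGF7 by 0.57 ± 0.12 (limma adjusted p = 0.00118), with CSF2, SPP1, IL15 and BMP6 by 0.22 to 0.37. AREG, already higher with Raf, rose further by 0.38 ± 0.12 (limma adjusted p = 0.0176). The EGF rise came with the promoter peak seen in 4 of 4 hypoxia and 1 of 4 normoxia libraries of Raf-active cells, and that of KITLG with the 2 regions named above. At matched depth the FGF7 and IL15 rises did not pass, while EGF, KITLG, AREG and BMP6 still did. Leaving out Raf-active hypoxia replicate 1 ended the calls for AREG (0.34), BMP6 (0.20), CSF2 (0.36), SPP1 (0.37) and IL15 (0.34), and so did other single libraries for these 5: replicate 4 of Raf-active normoxia for AREG, replicate 4 of Raf-active hypoxia for BMP6, and 3 to 6 more libraries each for CSF2, SPP1 and IL15 (0.24 to 0.38). Those that fell with hypoxia in Raf-active cells were TNFRSF11B by 0.60 (limma adjusted p = 0.00383), FGF2 by 0.44 (limma adjusted p = 0.00109) and PLAT by 0.40 (limma adjusted p = 0.00921), with IGFBP2, TNFRSF1A, INHBA, EREG and NRG1 by 0.17 to 0.31. FGF2 had 13.1, 11.4, 14.6 and 12.2 scaled peaks in Raf-active hypoxia, against 19.6, 18.5, 16.1 and 16.8 in Raf-active normoxia. The Raf-inactive libraries of FGF2 had 13.3, 12.3, 14.8 and 14.6 in hypoxia, against 17.3, 15.3, 13 and 14.9 in normoxia. The FGF2 fall (-0.25) and the INHBA fall (-0.08) did not pass at matched depth, where NRG1 turned to 0.06, and at peaks of at least 5-fold enrichment FGF2, PLAT, IGFBP2, TNFRSF1A, EREG and NRG1 had log2 changes of 0.07 to 0.50, above 0. Of these falls, that of TNFRSF1A was lost without Raf-active hypoxia replicate 4 (-0.24), that of INHBA without Raf-active hypoxia replicate 1 or 3 or Raf-active normoxia replicate 2 or 3 (-0.21 to -0.27), and that of EREG without Raf-active hypoxia replicate 1, 2 or 4 or Raf-active normoxia replicate 2 or 4 (-0.18 to -0.25). In Raf-inactive cells hypoxia raised IGFBP5 by 0.88 ± 0.14 (limma adjusted p = 0.000694), IGFBP2 by 0.50 ± 0.09 (limma adjusted p = 0.000958), AREG by 0.44 ± 0.12 (limma adjusted p = 0.0155), BMP6 by 0.24 ± 0.07 and NRG1 by 0.15 ± 0.03. The AREG call was lost at matched depth (0.39) and without Raf-inactive hypoxia replicate 4 (0.36), and that of BMP6 at matched depth (0.19), without Raf-inactive hypoxia replicate 1 (0.21) and without Raf-inactive normoxia replicate 2 (0.22). It lowered BMP2 by 0.62 (limma adjusted p = 0.0105) and PLAU by 0.55 (limma adjusted p = 0.00826). The PLAU call was lost with 50 kb around the gene (-0.05), at peaks of at least 5-fold enrichment (-0.16) and in a fit of these 2 groups alone (-0.54). That of BMP2 was lost with 50 kb (-0.44) and turned to 0.02 with peaks given to the nearest gene. The IGFBP5 rise did not pass with peaks given to the nearest gene (0.23), nor that of IGFBP2 at peaks of at least 5-fold enrichment (0.08) or with 2 kb around the gene (0.21), and in base pairs covered IGFBP2 turned to -0.02. In IGFBP5, Raf-inactive hypoxia replicates 1 and 2 had 9.98 and 11.2 scaled peaks and replicates 3 and 4 had 17.1 and 17.9, the widest spread of its 4 groups. The regions chr2:216664583-216665063 and chr2:216672344-216673937, shared by IGFBP2 and IGFBP5, had peaks in 4 of 4 libraries of every group but Raf-inactive normoxia, which had none. Few member regions changed fully with oxygen: in Raf-active cells 18 were gained and 30 lost (2.19% and 3.65%, against 3.69% and 3.06% of all regions), and in Raf-inactive cells 15 were gained and 9 lost (1.82% and 1.09%, against 1.5% and 1.59%).

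The Raf change differed between hypoxia and normoxia at 9 of the 47 loci in the interaction test, 19.1% against 19.6% of all tested loci (9.97% upward and 9.66% downward). The difference, which takes the Raf change in normoxia from the one in hypoxia, was above 0 for CXCL12 at 0.69 ± 0.19 (limma adjusted p = 0.0148) and KITLG at 0.61 ± 0.14 (limma adjusted p = 0.00562). KITLG fell less with Raf in hypoxia than in normoxia, and CXCL12 fell past the test in normoxia only. It was below 0 for IGFBP5 at -0.94 ± 0.20 (limma adjusted p = 0.00341), IGFBP2 at -0.81 ± 0.12 (limma adjusted p = 0.000176), PLAT at -0.68 ± 0.15 (limma adjusted p = 0.00428), HGF at -0.60 ± 0.17 (limma adjusted p = 0.0165), EREG at -0.48 ± 0.12 (limma adjusted p = 0.0074), INHBA at -0.48 ± 0.13 (limma adjusted p = 0.013) and NRG1 at -0.31 ± 0.04 (limma adjusted p = 3.87e-05). All 7 had a Raf change above 0 in normoxia, past the test for each but INHBA, and a change below 0 in hypoxia, past the test for EREG, INHBA and NRG1. EGF, with a difference of 0.71 ± 0.25, did not pass (limma adjusted p = 0.0511). At matched depth KITLG, INHBA and NRG1 did not pass this test, and at peaks of at least 5-fold enrichment the differences of IGFBP2, PLAT, EREG and NRG1 were above 0. Peaks given to the nearest gene ended the calls of KITLG (0.19), PLAT (-0.47) and HGF (-0.15), and 2 kb around the gene those of CXCL12 (0.54), EREG (-0.37) and INHBA (-0.27).

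The best known secretory genes outside this list, 29 of 32 of them tested, gave 6 rises and 8 falls with Raf in hypoxia and 11 rises and 5 falls in normoxia. With hypoxia 1 rose and 7 fell in Raf-active cells, and 5 rose and 2 fell in Raf-inactive cells. Receptors and ligands that pair with the 52 genes, 43 of 48 tested, gave 10 rises and 18 falls with Raf in hypoxia and 14 rises and 16 falls in normoxia. With hypoxia 7 of them rose and 5 fell in Raf-active cells, and 4 rose and 2 fell in Raf-inactive cells. Of all tested loci, 33.7% rose and 26.5% fell with Raf in hypoxia, and 37.2% and 25.9% in normoxia. With hypoxia 13.7% of all rose and 14.2% fell in Raf-active cells, and 6.39% and 7.3% in Raf-inactive cells. Neither list was tested against these shares. CCR6, the receptor of CCL20, had no peak in any of the 8 Raf-inactive libraries. The median log2 change of the pairing list was -0.06 with Raf in hypoxia and 0.02 in normoxia, and that of the secretory list 0.01 and 0.17.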

How the data were processed

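The authors deposited 1 narrowPeak list per library on hg38, with replicates not pooled. Bowtie2 and MACS2 are named beside cutadapt, FastQC, Picard, SAMtools, bedtools and deepTools, per the submitters' processing notes, and versions, settings and read depths are not given in the sources used here. Each deposited peak has a display score, a fold enrichment over local background at its summit and a −log10 p and −log10 q, all as the authors' peak caller gave them. They rank peaks within a list only.

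Peaks with 1 interval were counted once, on chromosomes 1 to 22 and X. A peak was given to each of 19974 protein-coding loci (RefSeq GRCh38.p14) that held its summit, and counts were scaled to the mean library total over these loci. Loci with a mean of at least 3 entered limma 3.58.1 (R 4.3.3) on log2 of scaled peaks plus 1, with 4 group means over 16 libraries and trended moderation. Benjamini-Hochberg adjusted p-values cover all 15118 loci, called below 0.05. A fold on this scale understates the change at low loci.

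For matched depth, the pileup behind each peak was recovered from its fold and −log10 p (within 0.001 for 89.0% to 98.6% of peaks), thinned to the lowest background (3.01 reads) and kept at a −log10 p of at least 5. Merged regions needed peaks of at least 2 libraries. Region sequences were not used here.

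Values in every library are given for members called without overlap of the 2 groups, up to 8 rises and 8 falls by size per Raf comparison and up to 5 each for the others; a few more are named to account for all 52. The members and lists were chosen with earlier results of these data known. Alternatives are given in the closing section.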

Additional observations from a re-analysis of the deposited data

Results flagged for a closer look

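In 46 of 208 groups of 4 libraries, over the 52 members, the highest or lowest library lay further from its neighbour, as a share of the group's range, than Dixon's critical value for 4 values. Chance flags about 5% of groups, and ties are common because values step by whole peaks. In Raf-active normoxia, replicate 3 had the lowest total over coding loci, 165214 against 175775 to 177558. Its flags above the group come from equal peak numbers in all libraries of the group, set apart by scaling alone. The values are scaled peaks, with the other 3 libraries after each. In Raf-active hypoxia, 1 library stood apart above its group at CCL3 (replicate 4, 1.88 against 0.91 to 0.95), CCL13 (replicate 1, 1.86 against 0.91 to 0.95), CSF2 (replicate 4, 4.69 against 3.64 to 3.8), IGFBP1 (replicate 1, 4.66 against 2.73 to 2.85), PLAU (replicate 2, 5.7 against 4.55 to 4.69) and IL13RA2 (replicate 4, 3.75 against 2.73 to 2.85). In Raf-inactive hypoxia, 1 library stood apart above its group at CCL3 (replicate 3, 1.14 against 0), CCL5 (replicate 1, 4.44 against 3.35 to 3.42), CCL13 (replicate 2, 3.35 against 2.22 to 2.28), TIMP1 (replicate 3, 5.71 against 4.44 to 4.48), AREG (replicate 4, 4.48 against 3.33 to 3.42) and GDF15 (replicate 3, 5.71 against 4.44 to 4.48) and below it at CCL8 (replicate 4, 2.24 against 3.33 to 3.42), IGFBP1 (replicate 4, 4.48 against 5.55 to 5.71), IGFBP6 (replicate 3, 3.42 against 4.44 to 4.48), SERPINB2 (replicate 2, 3.35 against 4.44 to 4.57), PGF (replicate 1, 7.76 against 8.94 to 9.13), BMP2 (replicate 3, 1.14 against 2.22 to 2.24) and TNFRSF11B (replicate 3, 4.57 against 6.65 to 6.72). In Raf-active normoxia, 1 library stood apart above its group at CCL2 (replicate 3, 3.79 against 3.53 to 3.57), CCL7 (replicate 3, 2.85 against 2.65 to 2.67), CCL8 (replicate 3, 1.9 against 1.77 to 1.78), CCL13 (replicate 3, 0.95 against 0.88 to 0.89), IGFBP6 (replicate 3, 4.74 against 4.41 to 4.46), TIMP1 (replicate 3, 6.64 against 6.18 to 6.24), HGF (replicate 4, 14.2 against 13.2 to 13.4), WNT2 (replicate 3, 5.69 against 5.3 to 5.35), PGF (replicate 3, 7.59 against 7.06 to 7.13) and FAS (replicate 3, 4.74 against 4.41 to 4.46) and below it at IGFBP4 (replicate 1, 8.03 against 9.49 to 9.73), IGFBP5 (replicate 1, 11.6 against 13.2 to 13.3) and IL13RA2 (replicate 3, 1.9 against 2.65 to 2.67). In Raf-inactive normoxia, 1 library stood apart above its group at CCL2 (replicate 1, 6.48 against 5.32 to 5.45), CCL5 (replicate 3, 4.33 against 3.19 to 3.27), CCL7 (replicate 1, 3.24 against 2.13 to 2.18), CCL8 (replicate 2, 4.36 against 3.19 to 3.25), CCL26 (replicate 2, 6.54 against 5.32 to 5.41), IGFBP5 (replicate 3, 8.66 against 6.39 to 6.54), AREG (replicate 2, 3.27 against 2.13 to 2.16), FGF7 (replicate 1, 14 against 11.7 to 12), SPP1 (replicate 4, 4.26 against 3.24 to 3.27), WNT5A (replicate 4, 21.3 against 17.3 to 17.4), BMP2 (replicate 4, 4.26 against 3.24 to 3.27) and TNFRSF1B (replicate 2, 10.9 against 8.52 to 8.66) and below it at CSF3 (replicate 3, 4.33 against 5.32 to 5.45) and CXCL12 (replicate 4, 6.39 against 7.56 to 7.63).

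The Raf change differed between hypoxia and normoxia in the limma interaction test at 9 members. The difference, with the normoxia change subtracted, was 0.69 for CXCL12 and 0.61 for KITLG. It was -0.81 for IGFBP2, -0.935 for IGFBP5, -0.68 for PLAT, -0.48 for EREG, -0.31 for NRG1, -0.60 for HGF and -0.48 for INHBA. The share called was 19.1% of members and 19.6% of all tested loci.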

How the results depend on the processing

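Among 88 changes of single members past the test, 57 kept their direction under every alternative that gave a value, 68 stayed past the test under every fit without 1 library, and 19 stayed past it under every alternative. Where a value below moved or turned, the cause was not tested. The alternatives were planned except matched depth, which was chosen after seeing the data.

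The number of members called ran from 20 to 23 for Raf in hypoxia, 29 to 33 for Raf in normoxia, 9 to 16 for hypoxia in Raf-active cells, 6 to 11 for hypoxia in Raf-inactive cells and 9 to 12 for the interaction when 1 library was left out. With peaks of at least 5-fold enrichment it was 16 for Raf in normoxia and 4 for hypoxia in Raf-inactive cells. With base pairs covered it was 28 for hypoxia in Raf-active cells, 14 for hypoxia in Raf-inactive cells and 16 for the interaction, and with 50 kb around each gene 16 for the interaction. Deviations of same-numbered libraries had correlations of -0.0387 to 0.014, but scatter in counts may hide pairing. With the replicate number as a block, the counts were 24 for Raf in hypoxia, 32 for Raf in normoxia, 15 for hypoxia in Raf-active cells, 8 for hypoxia in Raf-inactive cells and 10 for the interaction.

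Regions gained at peaks of at least 5-fold enrichment were 43 for Raf in hypoxia, 49 for Raf in normoxia, 29 for hypoxia in Raf-active cells and 24 for hypoxia in Raf-inactive cells, and 14 were lost with hypoxia in Raf-active cells. With calls from at least 3 of 4 against at most 1 of 4, 136 regions were gained and 117 lost for Raf in hypoxia, 189 were gained for Raf in normoxia, 51 were gained and 79 lost for hypoxia in Raf-active cells, and 45 were gained and 33 lost for hypoxia in Raf-inactive cells. With 1 library left out, gained and lost regions ran from 92 to 99 and 76 to 84 for Raf in hypoxia, 124 to 132 and 92 to 98 for Raf in normoxia, 19 to 23 and 31 to 41 for hypoxia in Raf-active cells, and 16 to 18 and 10 to 13 for hypoxia in Raf-inactive cells.

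With peaks of at least 5-fold enrichment, the log2 changes that turned with Raf in hypoxia were IGFBP2 0.64, PLAT 0.27, TIMP1 -1.24, EREG 0.0095 and NRG1 0.037. Those with Raf in normoxia were CSF3 -0.15, TIMP2 -0.040, EREG -0.32, NRG1 -0.28 and PGF 0.18. Those with hypoxia in Raf-active cells were CSF3 0.38, IGFBP2 0.31, PLAT 0.16, EREG 0.27, NRG1 0.50, FGF2 0.072, FGF7 -0.067 and TNFRSF1A 0.15. That with hypoxia in Raf-inactive cells was IL7 0.22. Those in the interaction were IGFBP2 0.23, PLAT 0.054, TIMP1 -1.26, EREG 0.33 and NRG1 0.32. With 50 kb around each gene, the log2 changes that turned with Raf in hypoxia were IGFBP3 -0.28, SERPINB2 -0.33 and STC1 -0.25. Those with Raf in normoxia were CSF2 0.029, IGFBP3 -0.021, EREG -0.19, GDF15 -0.17, STC1 -0.20 and BMP2 -0.16. Those with hypoxia in Raf-active cells were SPP1 -0.019 and TNFRSF1A 0.033. That in the interaction was SPP1 -0.43. With 2 kb around each gene, the log2 changes that turned with Raf in hypoxia were IGFBP4 -0.35 and IGFBP6 -0.40. Those with Raf in normoxia were CSF1 -0.31, IGFBP6 -0.44 and EREG -0.22. With base pairs covered in place of peak numbers, the log2 change that turned with Raf in hypoxia was PGF 0.19. Those with Raf in normoxia were CSF2 0.011, IGFBP4 0.54, PLAU 0.26, PGF 0.15 and ICAM1 0.13. Those with hypoxia in Raf-active cells were CSF2 -0.15, TIMP1 0.36 and ICAM1 -0.13. That with hypoxia in Raf-inactive cells was IGFBP2 -0.015. That in the interaction was ICAM1 -0.21. With each peak given to its nearest gene, the log2 changes that turned with Raf in hypoxia were IGFBP2 0.36, IGFBP3 -0.17 and PLAT 0.45. Those with Raf in normoxia were CSF2 0.22, CXCL12 0.0026, IGFBP3 -0.010, HGF -0.041 and TNFRSF11B -0.21. That with hypoxia in Raf-active cells was CSF2 -0.073. That with hypoxia in Raf-inactive cells was BMP2 0.023. At matched depth NRG1 turned to -0.099 with Raf in normoxia and to 0.059 with hypoxia in Raf-active cells, and with lists of equal length to -0.096 and 0.052. Without scaling, the log2 changes that turned with Raf in hypoxia were IGFBP7 0.22 and NRG1 0.073. That with Raf in normoxia was IGFBP7 0.17.

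Other calls kept their direction but did not pass. At 5-fold enrichment they were CSF3, PLAUR, WNT2, TNFRSF1B and IL15 with Raf in hypoxia, CSF2, IGFBP2, FGF2, FGF7, WNT2, TNFRSF1B and TNFRSF11B with Raf in normoxia, INHBA with hypoxia in Raf-active cells, IGFBP2, PLAU, NRG1 and BMP6 with hypoxia in Raf-inactive cells, and KITLG in the interaction. With 50 kb they were CCL2, CSF3, IGFBP1, AREG, BMP2 and BMP6 with Raf in hypoxia, CSF3, IGFBP1, AREG, NRG1, FGF2, BMP6 and ICAM1 with Raf in normoxia, CSF2, IGFBP2, PLAT, EREG, FGF7 and BMP6 with hypoxia in Raf-active cells, PLAU, BMP2 and BMP6 with hypoxia in Raf-inactive cells, and PLAT and EREG in the interaction. With 2 kb they were EGF with Raf in hypoxia, IGFBP3 and PGF with Raf in normoxia, PLAT, EREG and INHBA with hypoxia in Raf-active cells, IGFBP2 with hypoxia in Raf-inactive cells, and CXCL12, EREG and INHBA in the interaction. With base pairs covered they were EREG, ICAM1 and TNFRSF1A with Raf in hypoxia, IGFBP1, IGFBP2, NRG1 and FGF2 with Raf in normoxia, TNFRSF1A with hypoxia in Raf-active cells, BMP6 with hypoxia in Raf-inactive cells, and IGFBP2 in the interaction. By nearest gene they were CCL2, SERPINB2, INHBA and BMP2 with Raf in hypoxia, NRG1, PGF and ICAM1 with Raf in normoxia, PLAT, AREG, SPP1, BMP6 and TNFRSF11B with hypoxia in Raf-active cells, IGFBP5, AREG and BMP6 with hypoxia in Raf-inactive cells, and PLAT, HGF and KITLG in the interaction. At matched depth they were IGFBP1 with Raf in hypoxia, IGFBP1, FGF2, SPP1 and PGF with Raf in normoxia, FGF2, FGF7, INHBA and IL15 with hypoxia in Raf-active cells, AREG and BMP6 with hypoxia in Raf-inactive cells, and NRG1, INHBA and KITLG in the interaction. With lists of equal length they were EGF with Raf in hypoxia, FGF2, SPP1, PGF and BMP2 with Raf in normoxia, FGF2, FGF7 and IL15 with hypoxia in Raf-active cells, BMP6 with hypoxia in Raf-inactive cells, and CXCL12, NRG1 and KITLG in the interaction. Without scaling, beside the Raf calls given above, they were CSF2 and IL15 with hypoxia in Raf-active cells, and NRG1 and BMP6 with hypoxia in Raf-inactive cells. With a −log10 q of at least 5 they were EREG with Raf in hypoxia, IGFBP1, EREG, NRG1, FGF2 and PGF with Raf in normoxia, IGFBP2, NRG1 and BMP6 with hypoxia in Raf-active cells, BMP6 with hypoxia in Raf-inactive cells, and EREG in the interaction. In a fit of the compared groups alone they were FGF2 and SPP1 with Raf in normoxia, EREG and SPP1 with hypoxia in Raf-active cells, and PLAU with hypoxia in Raf-inactive cells. With no minimum mean they were SERPINB2 with Raf in hypoxia, FGF2 with Raf in normoxia, and IL15 with hypoxia in Raf-active cells. With a mean of at least 5 it was CCL26 with Raf in hypoxia. With any overlap in place of the summit they were CSF2 with Raf in normoxia, and CSF2 with hypoxia in Raf-active cells. With the replicate block it was IL15 with hypoxia in Raf-active cells.

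Peak calls are yes or no, so a site just under the threshold in a shallow library counts as closed. Depth moved with Raf state, and in Raf-inactive cells with oxygen as well, and its part in the calls kept at matched depth was not tested.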
